A study of Taeniopygia guttata with 8 samples.

Results

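The chromosome 3 regions are the 2730 intervals, of 35958 in the deposited table of H3K27ac read counts (7.59%), whose chromosome is given as exactly 3. The 40 intervals on unplaced sequence assigned to that chromosome were not included. Within the 2730, 2 places were picked out and were selected on their log2 fold change between Area X and RA in these libraries: a domain of 15 regions at chr3:39453715-39609330 and a pair of neighbouring regions, chr3:35399173-35400257 and chr3:35400981-35404364. The difference between nuclei at these places is therefore given as a description, without a test.

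H3K27ac is histone H3 acetylated at lysine 27, a mark deposited by the acetyltransferases CBP and p300 at promoters and enhancers in use. Narrow acetylated intervals are typical of single promoters or enhancers, and long stretches of them are known from loci around strongly expressed genes that define a cell type. Area X is the striatal nucleus of the song system, needed for vocal learning and filled mostly with inhibitory medium spiny neurons. RA, the robust nucleus of the arcopallium, holds excitatory projection neurons that drive the brainstem centres for the syrinx and respiration. Singing is known to switch on activity-dependent genes in both nuclei.

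The tissue came from adult male zebra finches (Taeniopygia guttata) kept alone in sound-attenuating chambers until 1 to 2 h of silence or of singing had passed after lights on, and the singing samples carry the label of 2 h. Nuclei of 6 birds were pooled, with 18 birds per behaviour, so that each library averages over birds and over every cell type of the dissected nucleus. The table holds 3 silent and 4 singing libraries of Area X and as many of RA, although the protocol states 3 pools per behaviour, and no source used here says what the additional singing library is. Nothing ties a library to its birds, so libraries of Area X and RA may share birds, and p-values measure the spread between these libraries, which may be technical in part. The source label speaks of laser capture and the protocol of dissection by hand under a microscope from 400 µm sections, and the antibody is listed with more than 1 lot. Silent and singing were read from the words minus and plus in the column names, and the sign of each behaviour effect depends on that reading. Cell type markers could not be checked, because the genome build is not given and regions are named by position only.

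Levels are TMM-scaled counts per 1e6 reads (CPM), or CPM per kb where regions of different width are compared, and errors are SDs over libraries. Chromosome 3 received 16010 to 839701 reads per library. RA singing library 4 was the shallowest, with a median of 3 reads per chromosome 3 region and none in 14% of them. RA silent library 2 and RA singing library 4 stood apart from the other RA libraries. Across the 2730 regions the former had a median Spearman coefficient of 0.911 with Area X libraries and 0.807 with RA libraries, and the latter 0.806 and 0.691. The other RA libraries had medians of 0.555 to 0.723 with Area X and 0.773 to 0.800 with RA. Of these, RA singing libraries 2 and 3 came nearest to Area X, with 0.723 and 0.692, and were not left out with the former 2. Among Area X libraries, singing library 1 and silent library 1 came nearest to RA, with medians of 0.806 and 0.785 with RA libraries. With the other Area X libraries their medians were 0.861 and 0.924. Both stayed in wherever the 2 RA libraries were left out together. RA silent library 2 and RA singing library 4 keep their RA labels here. The counts of calls, the sums of the domain and the pair, and the chromosome share are also given without them. Other results, such as non-overlap, spread, series, width classes and the largest folds, are given with them only. The part played in these values by mixed tissue or by depth was not tested.

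Acetylated regions lay along the whole of chromosome 3, from chr3:9412-10663 to chr3:112588958-112589229. All 113 windows of 1 Mb held at least 1 region, with a median of 21 and a maximum of 72, in the first window of the chromosome. The 3 first segments of 10 Mb held 306, 299 and 403 regions, with 68 between 28 and 29 Mb alone, whereas 123 lay from 70 to 80 Mb. The longest stretches without a region were 1386 kb before chr3:106411988-106413383 and 1034 kb before chr3:72708821-72709207. Together the regions covered 3.44 Mb of the 44.3 Mb in the table. Their median width was 866 bp (quartiles 481 and 1519 bp), against 764 bp over all chromosomes, and the median gap between neighbours was 12.7 kb, against 9.02 kb. There were 24.2 regions per Mb, compared with 17.0 on chromosome Z, 19.1 on chromosome 2, 21.3 on chromosome 4, 22.0 on chromosome 1, 25.3 on chromosome 1A and 33.6 on chromosome 5. The median level was 16.2 CPM, or 17.9 CPM per kb, against 13.8 CPM and 17.1 CPM per kb for the whole table.

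Chromosome 3 took a similar part of the reads in both nuclei. Its share of all reads in regions was 7.45, 7.87 and 7.5% in the RA silent libraries and 7.36, 7.76, 7.46 and 7.91% in the RA singing libraries. In Area X it was 7.53, 8.13 and 7.95% in the silent libraries and 7.46, 7.84, 8.46 and 7.88% in the singing libraries. The ranges of the nuclei overlapped, the mean being 7.61 ± 0.22% for RA and 7.89 ± 0.34% for Area X (n = 7 each). Without RA silent library 2 and RA singing library 4 the RA mean was 7.51 ± 0.15% (SD, n = 5).

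**Figure D1:**
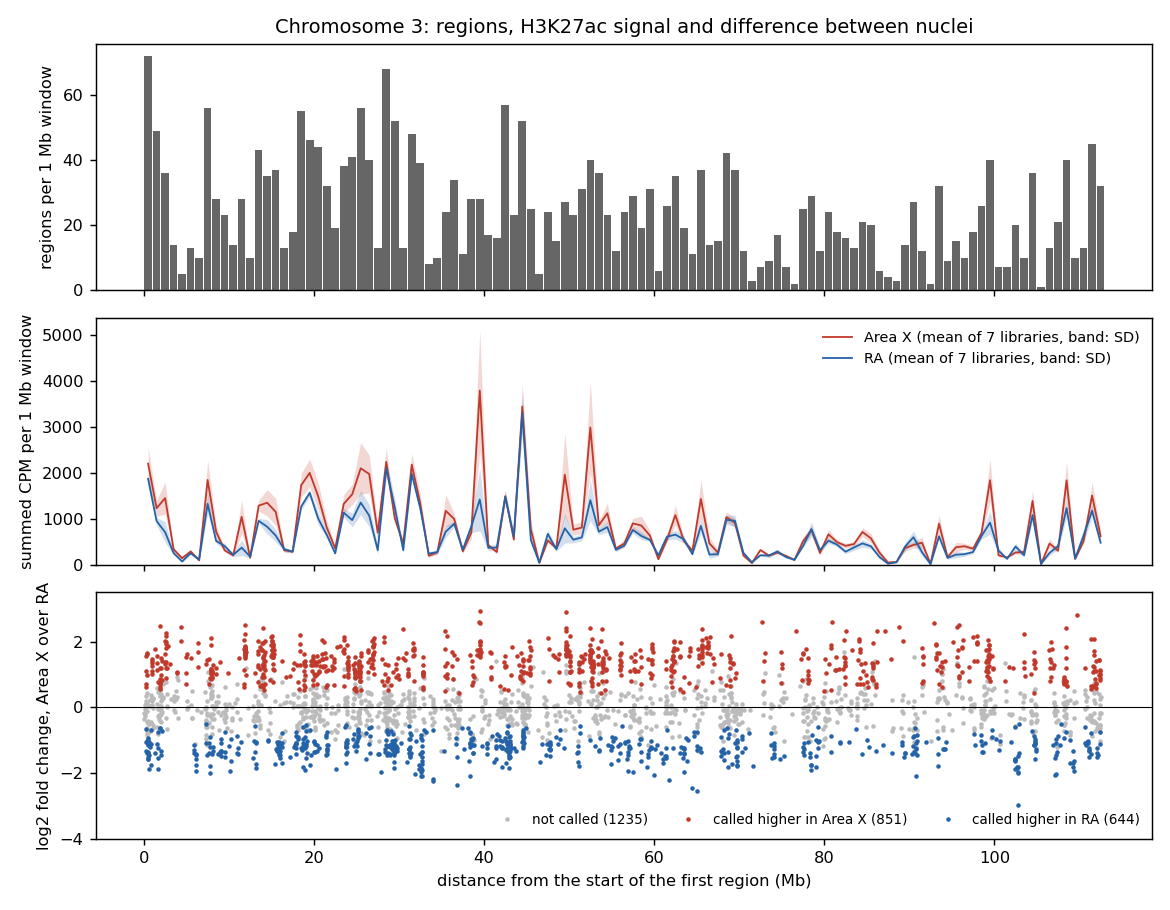
Regions per 1 Mb window (top), summed CPM per window (middle, mean of 7 libraries per nucleus with the SD as a band) and log2 fold change of each region, Area X over RA (bottom), against the distance in Mb from the start of the first region. The densest window holds 72 regions, both nuclei share most peaks of signal, and the 851 regions called higher in Area X and the 644 called higher in RA are interspersed along the chromosome.

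The domain held the region with the highest level and the widest region of the chromosome. It spanned 156 kb, of which its 15 regions covered 88.5 kb. Its summed level in Area X was 1960, 3648 and 4078 CPM in the silent libraries and 1835, 2642, 5361 and 3900 CPM in the singing libraries. In RA it was 404, 1900 and 445 CPM in the silent libraries and 397, 1187, 990 and 1917 CPM in the singing libraries. The nuclei overlapped, since RA silent library 2 and RA singing library 4 lay above Area X singing library 1. Under TMM scaling they lay below every other Area X library. With total-count scaling RA singing library 4 (2178 CPM) lay above Area X silent library 1 (2086 CPM) as well. In the domain RA singing library 4 had 441 reads. Under TMM scaling Area X averaged 3346 ± 1271 CPM and RA 1034 ± 671 CPM over 7 libraries each, a ratio of 3.24. Without RA silent library 2 and RA singing library 4 the RA mean was 685 ± 376 CPM (SD, n = 5) and the ratio 4.89, under the same scaling. With total-count scaling the libraries lay closer, from 1857 to 4069 CPM in Area X and from 461 to 2178 CPM in RA. In dissected tissue, more cells that carry the mark and more of it per cell cannot be told apart. The domain made up 3.64 ± 0.83% of all chromosome 3 signal in Area X and 1.49 ± 0.91% in RA.

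The domain began with a sharp, strong block and went on as broad, lower acetylation. Its first region, chr3:39453715-39460793, had 435, 741 and 770 CPM in the silent and 592, 570, 832 and 588 CPM in the singing Area X libraries. The RA libraries had 121, 400 and 111 CPM (silent) and 105, 182, 136 and 300 CPM (singing), so that no RA library reached the lowest Area X library. Under TMM scaling the region was 3.37-fold higher in Area X. With signal-dependent scaling its log2 fold change was 0.94, a smaller difference. Directly after it, chr3:39461302-39462622 had 82.8, 173 and 136 CPM in silent and 127, 114, 134 and 82.6 CPM in singing Area X libraries. In RA this narrow region had 13.9, 69.8 and 7.83 CPM (silent) and 12.9, 11.7, 9.93 and 30.4 CPM (singing). These were the only 2 of the 15 regions in which the nuclei did not overlap. Per length they were also the most intense of the domain, at 91.4 and 91.9 CPM per kb in Area X. A space of 36168 bp without a region followed.

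The remaining 13 regions, chr3:39498791-39609330, formed an almost continuous field. They were the longest unbroken series of regions called higher in Area X on the chromosome. The last of them, chr3:39583809-39609330, was the widest region of chromosome 3 at 25522 bp and also had its highest level. It had 468, 918 and 1069 CPM in silent and 330.5, 621, 1367 and 991 CPM in singing Area X libraries. RA had 80.8, 486 and 132 CPM (silent) and 96.6, 326, 256 and 461 CPM (singing). RA silent library 2 and RA singing library 4 thus lay above Area X singing library 1 and, in the first case, above Area X silent library 1. The region chr3:39544226-39556089, 11864 bp wide, had 383 ± 195 CPM in Area X and 106 ± 74.1 CPM in RA. Per length the field was uneven, with chr3:39562114-39566299 at 53.3 CPM per kb and chr3:39527443-39529667 at 14.8 CPM per kb in Area X.

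**Figure D2:**
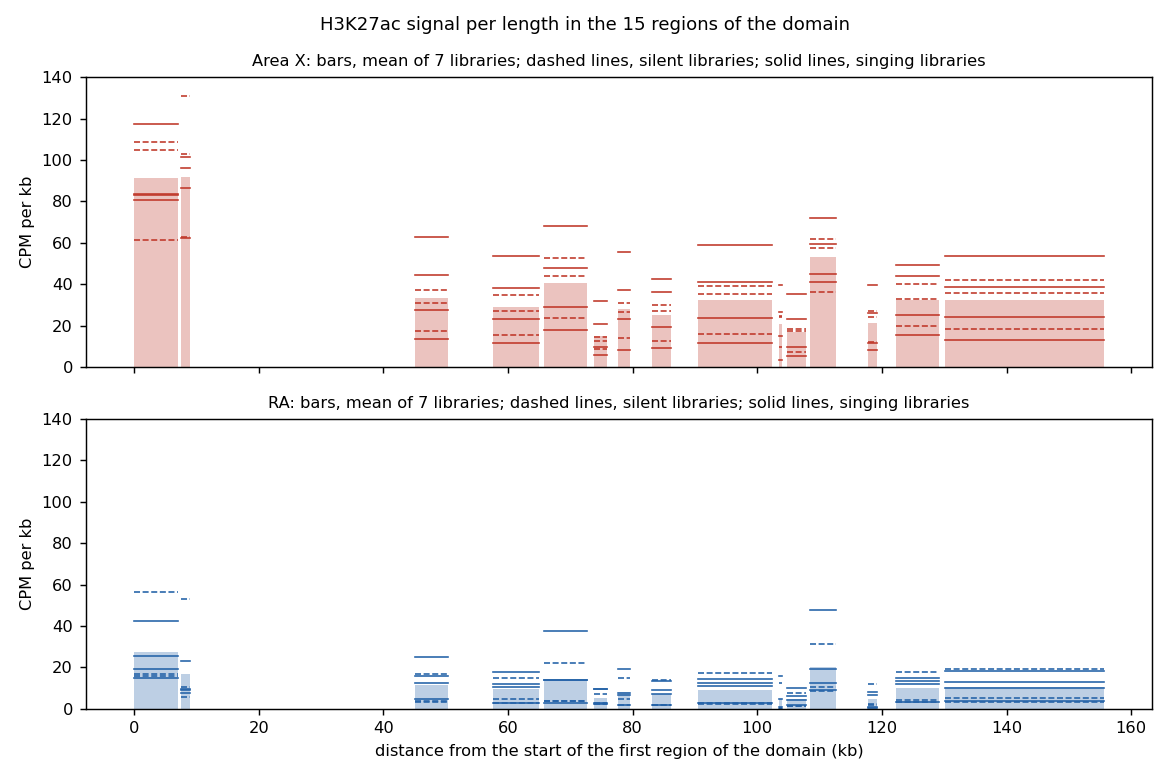
CPM per kb in the 15 regions of the domain against the distance in kb from its start, for Area X (top) and RA (bottom). Bars are means of 7 libraries, and lines are single libraries, dashed for silent and solid for singing. The first 2 regions are the most intense in Area X, a gap follows, and the field of 13 regions has the same outline at a lower level in RA.

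The nuclei differed in the level of the domain more than in its outline. The widest region held 24.0 ± 2.8% of the domain's signal in Area X and 25.3 ± 3.0% in RA, and the first region 20.8 ± 5.8% and 21.0 ± 6.3% (n = 7 each). The narrow second region held 4.03 ± 1.61% in Area X and 2.24 ± 1.18% in RA. All 15 regions were among those called higher in Area X, with log2 fold changes of 1.52 to 2.94, which is how the domain was found. The largest of these, at the 553 bp wide chr3:39557187-39557739, was 4.68 without RA silent library 2, the RA libraries of this weak region lying between 0 and 8.69 CPM. Across the 14 libraries the log2 CPM of any pair of domain regions correlated with r of 0.74 or more (median 0.93). The libraries share depth and scaling, and the 2 nuclei contribute to this correlation. Within a nucleus the typical domain region varied more than the typical region of the chromosome. The median SD of log2 CPM among Area X libraries was 0.76 in the domain against 0.45 over chromosome 3, and among RA libraries 1.13 against 0.68. The domain was selected on its difference between nuclei, and some libraries of each nucleus lay between the nuclei. Regions with a like fold were not compared as a group, so the larger spread is not shown to be particular to the domain. A large spread was also seen outside the domain. The 7 regions of chr3:49668415-49692820, called higher in Area X, summed to 472 ± 232 CPM in Area X and 161 ± 118 CPM in RA.

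The regions on either side of the domain were much weaker than its first and last regions. The preceding region, chr3:39228269-39230792, lay 222922 bp before it and had 64.7 ± 32.8 CPM in Area X and 22.8 ± 16.6 CPM in RA, a log2 fold change of 1.60 that lies within the range of the domain. The following one, chr3:39635507-39636503, had 29.1 ± 8.6 CPM in Area X and 21.2 ± 8.6 CPM in RA. Its log2 fold change of 0.54 toward Area X was below that of every region in the domain.

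The pair of regions before the domain had much lower levels. At chr3:35399173-35400257 the Area X libraries had 21.9, 32.1 and 40.9 CPM (silent) and 19.9, 24.4, 32.7 and 33.4 CPM (singing). The RA libraries had 2.06, 14.8 and 3.41 CPM (silent) and 4.06, 1.67, 7.38 and 13.0 CPM (singing), all below the lowest Area X library. With a log2 fold change of 2.33 it ranked second, after chr3:39461302-39462622, among the 77 regions called higher in Area X whose libraries did not overlap and whose mean was at or above the median of all regions. Both places were selected on this fold change, so the rank is a description only. The broader chr3:35400981-35404364 beside it had 60.3 ± 31.0 CPM in Area X and 18.8 ± 11.6 CPM in RA, and there the nuclei overlapped. The pair summed to 89.6 ± 37.5 CPM in Area X and 25.4 ± 15.3 CPM in RA, and to 18.6 ± 12.0 CPM in RA without the libraries that stood apart. The value of RA singing library 4 rests on 9 reads. The flanking regions had 12.8 ± 6.4 CPM in Area X and 6.01 ± 4.05 CPM in RA (chr3:35379732-35380498), and 11.8 ± 2.4 and 10.6 ± 2.6 CPM (chr3:35420516-35420883).

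**Figure D3:**
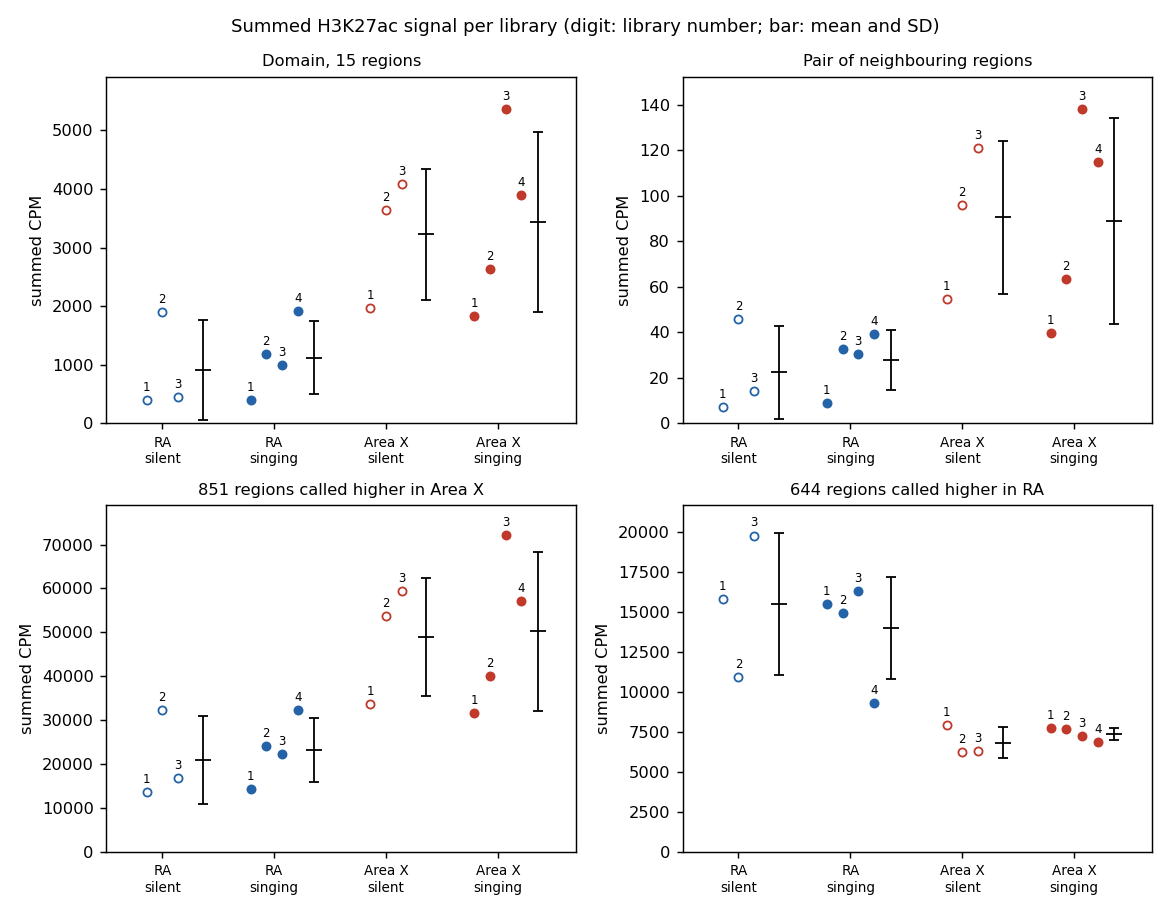
Summed CPM of each library in the domain, in the pair of neighbouring regions, and in the regions called higher in Area X or in RA; open circles are silent and filled circles singing libraries, digits are library numbers, and bars are group means with the SD. RA silent library 2 and RA singing library 4 lie highest among RA libraries in the domain (1900 and 1917 CPM) and lowest in the regions called higher in RA.

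Over both behaviours, 851 chromosome 3 regions (31.2%) were called higher in Area X, against 28.5% of all 35954 regions tested, and 644 (23.6%) were called higher in RA, against 25.3% (edgeR quasi-likelihood test, adjusted p under 0.05). All 2730 regions passed the filter on low counts. The median fold was 2.56 among the former and 2.31 among the latter. Of the calls, 660 exceeded 2-fold toward Area X (24.2%, against 21.9% of all regions) and 497 toward RA (18.2%, against 18.5%). The 7 libraries of each nucleus did not overlap in 86 regions higher in Area X (3.15%, against 4.38%) and in 94 higher in RA (3.44%, against 3.67%). RA silent library 2 reached the lowest Area X library in 617 of the 851 regions and RA singing library 4 in 520. RA singing libraries 2 and 3 lay between, with 352 and 363. RA silent library 3 did so in 99, RA singing library 1 in 31 and RA silent library 1 in 18. From the other side, Area X singing library 1 lay at or below the highest RA library in 670 of the 851. Area X silent library 1 did so in 587. Without RA silent library 2 and RA singing library 4, 926 regions (33.9%, against 30.6% of all regions) and 717 (26.3%, against 29.1%) were called. With total-count scaling, under which the median over all regions went from -0.04 to -0.35 on the log2 scale, the split turned to 568 toward Area X (20.8%, against 19.6% of all regions) and 871 toward RA (31.9%, against 34.2%). Values at the edge of the call were alike: chr3:111713137-111714452 (18.6 ± 6.7 CPM in Area X, 11.4 ± 2.4 in RA) lay just inside and chr3:19931108-19932144 (21.0 ± 9.0 and 13.8 ± 9.2) just outside.

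Within each behaviour fewer regions were called between the nuclei. These comparisons have 3 libraries per nucleus in silent and 4 in singing birds, against 7 over both behaviours. The lower counts therefore do not show that fewer regions differ. In silent birds 274 regions were called higher in Area X (10.0%, against 10.3% of all regions) and 261 in RA (9.56%, against 9.5%). In singing birds these were 251 (9.19%, against 10.4%) and 219 (8.02%, against 8.09%). Calls shared by both behaviours numbered 132 toward Area X, against 5.62% of all regions, and 137 toward RA, against 5.16%, in comparisons that share the estimate of the spread. In silent birds a fit to the compared groups alone called 0 regions in either direction, here and over all regions. Without RA silent library 2 and RA singing library 4 there were 724 (26.5%, against 23.7% of all regions) and 486 calls (17.8%, against 19.1%) in silent birds, and 516 (18.9%, against 17.6%) and 361 (13.2%, against 13.7%) in singing birds. With total-count scaling the split turned in silent birds to 146 toward Area X (5.35%, against 5.32% of all regions) and 376 toward RA (13.8%, against 13.4%). In singing birds it turned to 113 (4.14%, against 4.32%) and 422 (15.5%, against 15.5%). These counts also hung on single libraries. In silent birds edgeR called 0 in either direction without RA silent library 1, RA silent library 3, Area X silent library 2 or Area X silent library 3. Over all regions the share called there was at most 0.0278%. Without RA silent library 2 it called 729 (26.7%, against 23.8% of all regions) and 433 (15.9%, against 16.6%). Without library 1 of silent Area X, 469 were called toward Area X (17.2%, against 16.1%). Singing libraries enter the same fit. Calls toward Area X in silent birds numbered 416 (15.2%, against 14.1% of all regions), 146 (5.35%, against 6.77%) and 89 (3.26%, against 4.62%) without singing library RA 1, RA 2 or RA 3. They numbered 103 (3.77%, against 4.63%) and 110 (4.03%, against 5.04%) without singing library Area X 2 or Area X 4. Calls toward RA numbered 153 (5.6%, against 5.37%) without the singing Area X library 2 and 168 (6.15%, against 5.98%) without its library 4. For singing birds edgeR called 0 in either direction, here and over all regions, without RA singing library 3, Area X singing library 3 or Area X singing library 4. It called 18 (0.659%, against 1.19% of all regions) and 143 (5.24%, against 4.33%) without RA singing library 1. Without RA singing library 2 these were 60 (2.2%, against 2.73%) and 132 (4.84%, against 5.19%), and without Area X singing library 2 139 (5.09%, against 5.35%) and 77 (2.82%, against 2.63%). Toward Area X it called 378 (13.8%, against 13.3%) without Area X singing library 1 and 424 (15.5%, against 15.5%) without library 2 of silent RA. With all libraries, 1232 regions in silent birds (45.1%, against 43.9% of all) and 1095 in singing birds (40.1%, against 39.7%) had an unadjusted p under 0.05. DESeq2 called 411 (15.1%, against 14.7% of all regions) and 401 (14.7%, against 14.7%) for silent birds. For singing birds it called 374 (13.7%, against 13.9%) and 357 (13.1%, against 13.1%).

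Outside the domain, the highest mean level in Area X was at chr3:49739218-49752936, 13719 bp wide, with 571 ± 339 CPM in Area X and 175 ± 113 CPM in RA. Its Area X libraries ranged from 177 to 1151 CPM and its RA libraries from 51.1 to 296 CPM, with overlap. The highest mean level in RA, and outside the domain the highest over all libraries, was at chr3:44505364-44516385. Area X had 422, 558 and 552 CPM (silent) and 543, 515, 540.5 and 420.3 CPM (singing), and RA 561, 548 and 765 CPM (silent) and 518, 498, 426 and 448 CPM (singing). At 11022 bp this region was among the wide ones, and its groups overlapped. Its log2 fold change, -0.10 under TMM scaling and not called, was -0.42 with total-count scaling, -0.33 when only regions with at least the median CPM were fitted and -1.12 with signal-dependent scaling, each called higher in RA. At chr3:110665213-110676344, 11132 bp wide, RA was higher with 248 ± 98.9 CPM against 120 ± 10.7 CPM in Area X. At chr3:58418648-58431711 Area X had 484 ± 132 CPM and RA 297 ± 67.4 CPM, and the sign turned under signal-dependent scaling, from a log2 fold change of 0.71 to -0.21.

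Strong regions alike in both nuclei were spread along the chromosome. Of the 683 regions with a mean of at least 35.4 CPM, 389 were called in either direction and 294 were not. Over the whole of chromosome 3, 1495 of 2730 (54.8%) were called, so the uncalled share of strong regions was near that of the chromosome. Over all regions tested, 28.5% were called toward Area X and 25.3% toward RA. Among the 683, 70 had a log2 fold change within 0.1 of 0, a share not given here for all regions. The 5 closest to 0 were chr3:197608-199514, chr3:31147887-31149958, chr3:34046611-34048278, chr3:61439777-61442231 and chr3:90482233-90483323. At the first of them Area X had 58.8 ± 8.9 CPM and RA 58.7 ± 9.1 CPM (n = 7 each). Their levels in either nucleus lay between 47.9 and 60.8 CPM. With total-count scaling the log2 fold change at the first was -0.31 and not called.

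Among non-overlapping regions at or above the median level, the 10 with the largest fold toward Area X ranged from 3.45-fold to 6.08-fold. They included chr3:15088740-15090416, where Area X had 44.0, 62.4 and 63.9 CPM (silent) and 40.3, 33.0, 98.8 and 61.5 CPM (singing). RA had 5.85, 31.8 and 3.11 CPM (silent) and 8.82, 13.4, 8.79 and 30.4 CPM (singing) there. All RA libraries lay below the lowest Area X library, with the 2 libraries that stood apart nearest to it. The 30.4 CPM of RA singing library 4, in which 3 reads are 13.0 CPM, rests on few reads. So does the absence of overlap with the 33.0 CPM of Area X singing library 2. At chr3:96320865-96321891 the levels were 27.9 ± 6.9 CPM in Area X and 7.93 ± 6.80 CPM in RA, and at chr3:13397881-13398813 they were 96.8 ± 19.7 and 25.4 ± 17.3 CPM. The remaining ones of the 10, apart from the 2 already described, were chr3:27007564-27008477, chr3:23902714-23904138, chr3:96254921-96257665, chr3:2631826-2632982 and chr3:31687329-31690621.

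Toward RA the 10 largest folds ranged from 2.89-fold to 4.28-fold. The largest was at chr3:32678254-32679791, where RA had 24.7, 21.2 and 49.9 CPM (silent) and 30.3, 29.2, 38.9 and 17.4 CPM (singing). Area X had 13.2, 2.82 and 4.29 CPM (silent) and 13.3, 5.95, 6.26 and 6.19 CPM (singing). All Area X libraries lay below the lowest RA library, and the number 1 libraries of Area X came nearest. That lowest RA value, 17.4 CPM, is RA singing library 4, in which 3 reads are 13.0 CPM. The absence of overlap thus rests on very few reads. At chr3:32632724-32634218 the levels were 49.4 ± 19.2 CPM in RA and 11.3 ± 4.0 CPM in Area X, and at chr3:78495921-78498332 they were 60.6 ± 16 and 18.4 ± 5.3 CPM. The others were chr3:32646936-32647870, chr3:42616141-42618426, chr3:29430556-29431885, chr3:104785332-104787141, chr3:6143804-6145167, chr3:15966440-15967865 and chr3:42889566-42891452.

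A part of the calls between the nuclei came in series of neighbours, 99 of the 851 toward Area X and 60 of the 644 toward RA. The log2 fold changes of adjacent regions had an r of 0.87 where the gap was at most 1000 bp (300 pairs) and 0.16 where it exceeded 100000 bp (270 pairs). Adjacent regions share libraries and may be pieces of 1 acetylated stretch. Series of at least 5 consecutive calls in 1 direction, separated by no more than 10000 bp, were 15 toward Area X with 99 regions (3.63%, against 4.1% of all regions) and 9 toward RA with 60 (2.2%, against 3.09%). The whole table held 219 and 164 such series. The longest toward RA, chr3:29406224-29453068, had 11 regions and summed to 241 ± 75.7 CPM in RA and 98.5 ± 17.9 CPM in Area X. A pair of neighbouring series went in opposite directions. In chr3:32629189-32664068, with 8 regions, RA had 190, 140 and 278 CPM (silent) and 199, 179, 205 and 156 CPM (singing). Area X had 81.6, 44.9 and 49.7 CPM (silent) and 72.8, 82.8, 44.1 and 53.9 CPM (singing), below every RA library. In chr3:32804597-32839433, with 6 regions, Area X had 675 ± 226 CPM and RA 315 ± 104 CPM.

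Other series toward Area X were chr3:26880583-26937473 (8 regions, 594 ± 207 CPM in Area X and 194 ± 113 CPM in RA) and chr3:52773990-52823236 (7 regions, 1079 ± 396 and 462 ± 195 CPM). A further one, chr3:11841147-11884781, held 9 regions at 350 ± 173 CPM in Area X and 97.7 ± 61.3 CPM in RA. Toward RA, chr3:23766560-23814253 held 7 regions at 343 ± 95.6 CPM in RA and 157 ± 20.5 CPM in Area X. The RA level in that series ranged from 213 to 475 CPM and the Area X level from 126 to 175 CPM, without overlap. Also toward RA, chr3:42878923-42906259 held 6 regions at 229 ± 72.1 CPM in RA and 88.6 ± 16.1 CPM in Area X.

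Under TMM scaling the balance of the directions varied along the chromosome. For the whole of it, 31.2% of regions were called toward Area X and 23.6% toward RA, against 28.5% and 25.3% of all regions. Whether segments differ beyond the likeness of close neighbours was not tested, and their shares under total-count scaling are not given here. From 50 to 60 Mb, 42.9% of 268 regions were called higher in Area X and 18.7% in RA, and from 80 to 90 Mb 38.8% of 139 regions and 12.2%. From 40 to 50 Mb the shares were 24.5% and 31.4% of 261 regions, and from 100 to 110 Mb 23.0% and 30.9% of 165. Within the former, the window from 42 to 43 Mb held 57 regions, of which 27 were called higher in RA and 7 in Area X. Summed CPM of 10 Mb segments overlapped between the nuclei except from 10 to 20 Mb, where Area X ranged from 7530 to 11825 CPM and RA from 6052 to 7491 CPM. Of the 113 windows of 1 Mb, Area X lay above RA without overlap in 10 and RA above Area X in 0, whereas with total-count scaling these were 2 and 9, so the direction of whole windows turned with the scaling.

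Width went with direction. Of 109 regions over 4000 bp, 78.9% were called higher in Area X and 11.9% in RA, beside 62.2% and 20.4% of such regions in the whole table. Of 724 regions up to 500 bp, 13.4% were called higher in Area X and 29.8% in RA, beside 17.5% and 25.4%. Regions over 4000 bp held 23.7 ± 4.0% of chromosome 3 signal in Area X and 17.0 ± 3.6% in RA (n = 7 each). With signal-dependent scaling the shares were 53.2% and 17.4% in the wide class, and in the narrow class they turned to 18.2% toward Area X and 16.2% toward RA. With total-count scaling they were 65.1% and 13.8% in the wide class and 7.18% and 39.9% in the narrow class. The wide class includes 8 regions of the domain.

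**Figure D4:**
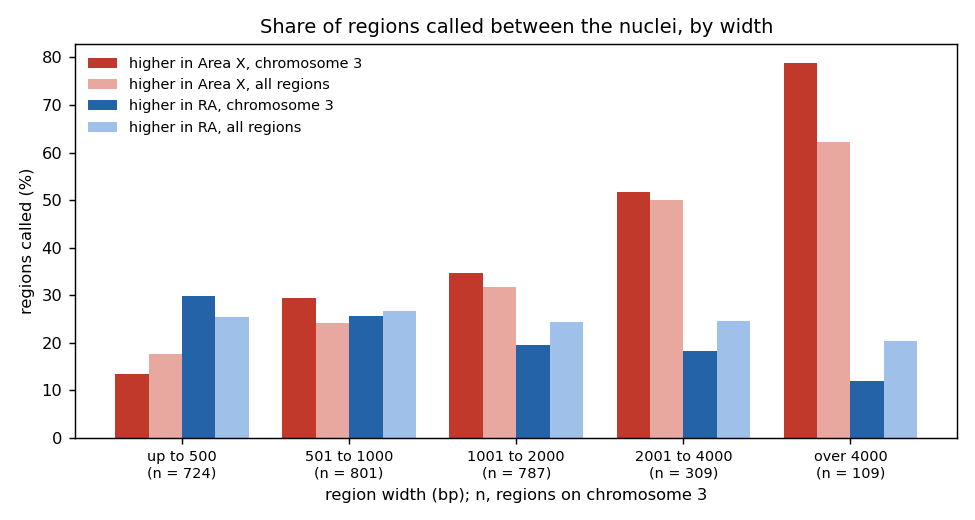
Percentage of regions called higher in Area X (red) and in RA (blue) by region width in bp, on chromosome 3 (dark) and over all regions of the table (light). The share toward Area X climbs from 13.4% in regions up to 500 bp to 78.9% in regions over 4000 bp on chromosome 3, under TMM scaling.

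Singing and silent libraries were then compared, a contrast that was not used to choose the 2 places. No chromosome 3 region passed the test in either nucleus, in their mean, or for the Area X effect minus the RA effect (all edgeR adjusted p = 1), and 0% of all regions did. DESeq2 called 0 chromosome 3 regions in each. At an unadjusted p under 0.05 edgeR found 55 regions in RA (2.01%, against 1.96% of all regions), of which 26 were higher in singing and 29 in silent libraries. In Area X it found 36 (1.32%, against 1.07%), 29 of them higher in singing. Libraries did not overlap in 12 regions with higher singing values in RA (0.44%, against 0.548%) and 51 with higher silent values (1.87%, against 1.73%). In Area X these were 48 (1.76%, against 1.81%) and 37 (1.36%, against 1.63%). By the unadjusted p, the mean of both nuclei gave 68 (2.49%, against 2.6%), and for the difference 14 (0.513%, against 0.587%). The numbers by unadjusted p hung on single libraries too. Without RA silent library 2 there were 299 in RA (11%, against 9.22% of all regions), 243 in the mean of both nuclei (8.9%, against 7.6%) and 150 for the difference (5.49%, against 4.65%). Without RA singing library 1 they were 208 (7.62%, against 7.88%), 178 (6.52%, against 6.47%) and 64 (2.34%, against 2.94%). Without RA silent library 1 there were 33 in RA (1.21%, against 1.63%). In Area X there were 83 without Area X silent library 1 (3.04%, against 3.6%) and 59 without Area X singing library 1 (2.16%, against 1.87%). There were 15 (0.549%, against 0.395%) and 13 (0.476%, against 0.37%) without Area X silent library 2 or 3. Without Area X singing library 3 or 4 there were 21 (0.769%, against 0.743%) and 22 (0.806%, against 0.754%). The mean of both nuclei gave 125 without Area X singing library 1 (4.58%, against 3.9%). It gave 38 without Area X silent library 2 (1.39%, against 1.48%) and 44 without Area X singing library 4 (1.61%, against 1.72%). The difference gave 31 without Area X silent library 1 (1.14%, against 1.6%) and 23 without RA singing library 3 (0.842%, against 1.09%). It gave 6 when RA silent library 3 was left out (0.22%, against 0.476%). Without library 2 or 3 of silent Area X or library 2 of singing Area X it gave 5 (0.183%, against 0.331%, 0.317% and 0.323%). No chromosome 3 region passed the adjusted threshold when any 1 library was left out. The 95% confidence interval of the singing effect reached a median of 0.96 in RA and 0.92 in Area X to either side on the log2 scale, so the interval at a typical region spanned about a 2-fold difference in each direction. The median log2 fold change over chromosome 3 was -0.03 in RA and 0.02 in Area X.

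The silent and singing libraries overlapped in the level of the domain and in the share of chromosome 3, and the sign of each difference turned when single libraries were left out. The domain summed to 3434 ± 1540 CPM in singing (n = 4) and 3229 ± 1119 CPM in silent Area X libraries (n = 3), a difference of 206 CPM (exact two-sided permutation p = 0.857). In RA the levels were 1123 ± 627 CPM and 916 ± 852 CPM, a difference of 206 CPM (exact two-sided permutation p = 0.8). The difference in RA was -58.2 CPM without RA singing library 4, -49.7 without RA silent library 1, -29.1 without RA silent library 3 and 698 without RA silent library 2. In Area X it was -437 CPM without Area X singing library 3, -429 without Area X silent library 1 and 739 without Area X singing library 1. The share of reads on chromosome 3 was higher in singing by 0.0208 percentage points in RA (exact permutation p = 1) and by 0.0422 points in Area X (exact permutation p = 0.971). With 3 against 4 libraries the smallest p possible is 0.0571, so none of these tests could pass 0.05, and all 4 tests had an adjusted p of 1. At chr3:35399173-35400257 the log2 fold change of singing over silent was -0.20 in Area X (95% interval -1.28 to 0.88) and -0.31 in RA (-1.61 to 0.98).

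The regions with the smallest p, none of which passed, follow as values. In Area X, 4 of the 5 lay between 28 and 29 Mb, the densest window after the first. In that window 5 of 68 regions had an unadjusted p under 0.05 in Area X, and all 5 had the higher mean in singing. The window from 7 to 8 Mb also held 5 such regions, among 56, so the count was not particular to 28 to 29 Mb. Over all chromosomes 1.07% of regions had such a p in Area X. At chr3:28256610-28258644 the Area X silent libraries had 56.7, 60.4 and 71.7 CPM and the singing libraries 83.1, 110, 157 and 85.5 CPM. The groups did not overlap, and the log2 fold change was 0.79 (SE 0.28, edgeR adjusted p = 1). In RA the same region had 56.6, 54.3 and 50.6 CPM in silent and 45.0, 49.3, 38.9 and 69.5 CPM in singing libraries, with overlap. At chr3:28243921-28244566 the Area X values were 5.27, 6.34 and 9.30 CPM in silent and 7.16, 18.2, 55.2 and 20.3 CPM in singing libraries. The others in the window were chr3:28023274-28023777, with 9.03 ± 0.70 CPM in silent and 21.8 ± 9.08 CPM in singing Area X libraries, and chr3:28786617-28787436, with 17.6 ± 3.5 and 34.1 ± 15.6 CPM.

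The fifth region, chr3:22103694-22104790, had the smallest p of the chromosome in Area X and in the mean of both nuclei. Area X had 9.52, 7.23 and 5.72 CPM in silent and 13.7, 17.0, 35.4 and 30.3 CPM in singing libraries, without overlap. RA had 3.80, 5.74 and 2.21 CPM in silent and 4.06, 18.4, 8.79 and 8.69 CPM in singing libraries, with overlap between 4.06 and 5.74 CPM. Over both nuclei the log2 fold change was 1.5 (95% interval 0.73 to 2.26, edgeR adjusted p = 1).

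In RA, 4 of the 5 regions with the smallest p had the higher mean in silent libraries. At chr3:32838176-32839433, inside a series toward Area X, RA had 31.0, 51.0 and 51.8 CPM in silent and 29.6, 23.4, 18.7 and 26.1 CPM in singing libraries, a log2 fold change of -0.88 (SE 0.30, edgeR adjusted p = 1). At chr3:48837492-48837922 RA had 8.22, 7.29 and 10.3 CPM in silent and 5.29, 3.34, 3.69 and 0 CPM in singing libraries. The 0 is RA singing library 4, in which 3 reads would be 13.0 CPM, so it does not show a level below the others. In Area X this region had 11.8 ± 1.5 CPM in silent and 13.4 ± 1.1 CPM in singing libraries, and the Area X effect exceeded the RA effect by 1.30 on the log2 scale (95% interval 0.18 to 2.42, edgeR adjusted p = 1). At chr3:2525946-2526611, the one with the higher mean in singing, RA had 0.791, 2.43 and 1.10 CPM in silent and 2.12, 15.9, 6.81 and 8.69 CPM in singing libraries. The remaining 2 were chr3:42031147-42031580, where the groups did not overlap, with 11.3 ± 1.3 CPM in silent and 4.13 ± 2.33 CPM in singing RA libraries, and chr3:78728824-78729413, where they did, with 34.6 ± 6.8 and 17.5 ± 7.3 CPM.

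**Figure D5:**
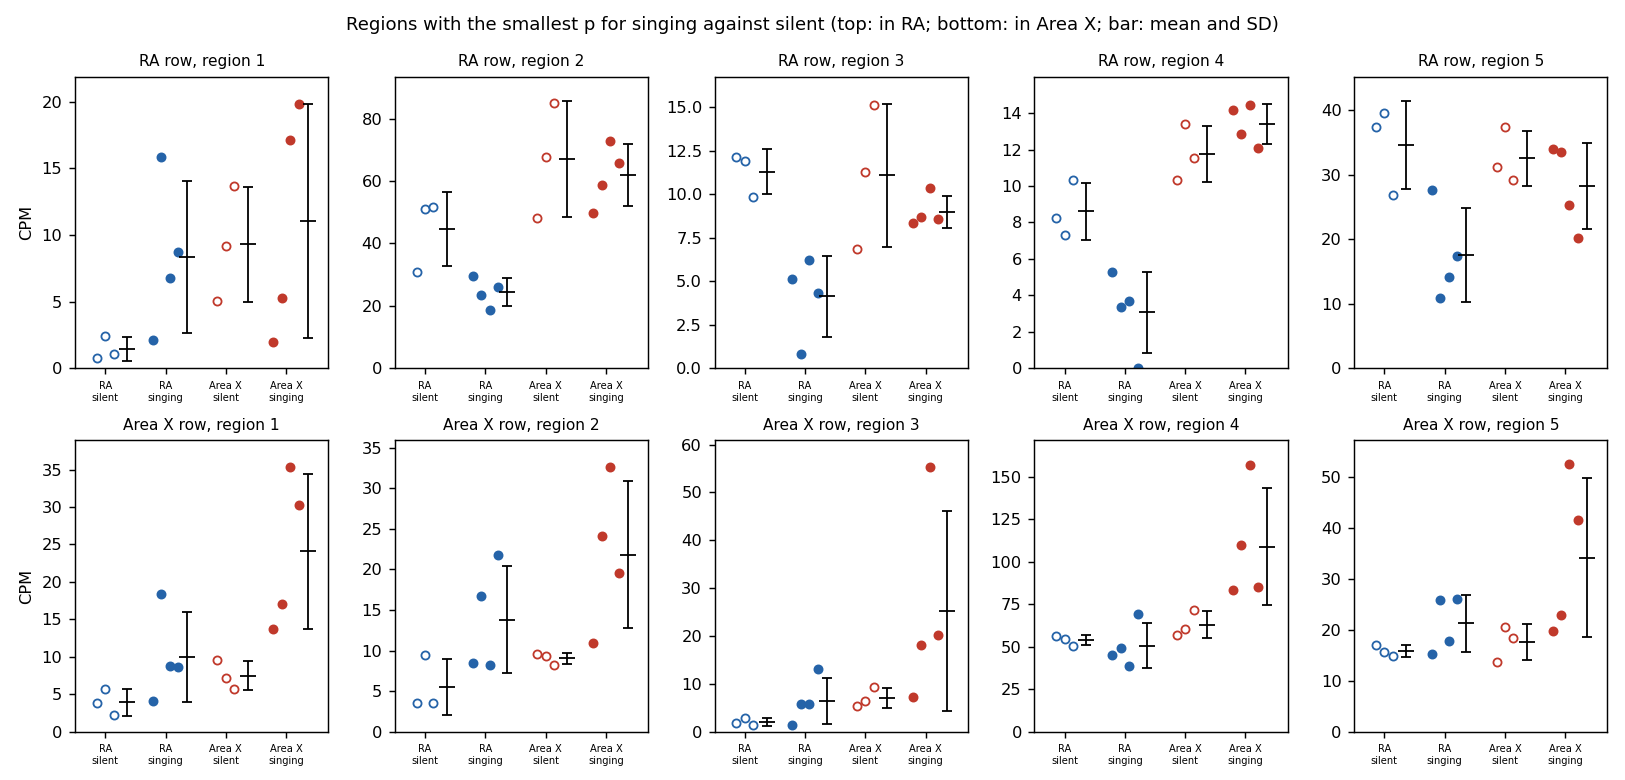
CPM of single libraries at the 5 chromosome 3 regions with the smallest p for singing against silent in RA (top row) and in Area X (bottom row), in order of position; open circles are silent and filled circles singing libraries, and bars are group means with the SD. At the fourth region of the bottom row, chr3:28256610-28258644, the Area X singing libraries lie between 83.1 and 157 CPM and the silent ones between 56.7 and 71.7 CPM, and none of the regions passed the test.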

How the data were processed

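The authors deposited raw read counts over listed regions for 14 libraries. The tools named, per the submitters' processing notes, are HTSeq 0.6.1, MACS2 2.1, SAMtools 1.1 and bedtools, without saying which did what. Not given in the sources used here are the aligner, the build and how regions were called, and the method of counting could shift wide against narrow regions. Column names do not state the assay and were taken as H3K27ac; inputs (whole-cell extracts) were not used here. Starts are printed as deposited plus 1.

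Counts were tested in R 4.3.3 with edgeR 4.0.16 (TMM, filterByExpr on the 4 groups, 1 robust quasi-likelihood fit to all 14 libraries and 35954 regions, 7 contrasts, Benjamini-Hochberg adjustment over all regions, threshold 0.05), after the script was tested on simulated data. CPM are TMM-scaled. Correlations of log2 CPM used a pseudocount of 0.5. Sums and shares of 3 against 4 libraries were compared by exact permutation. Intervals are 95% and cover the fitted spread.

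Regions were named by rule: the 10 largest folds per nucleus contrast and direction among called, non-overlapping regions at or above the median CPM; the 5 smallest p per singing contrast; the domain and the pair with their neighbours; the 5 highest and 5 widest regions; the longest series; the 5 strong regions most alike; and the chromosome ends. The members, lists and rules were chosen with earlier results of these data known. Only the 10 for the nuclei over both behaviours are listed one by one.

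Alternatives were DESeq2 1.42.0 size factors or test, total-count scaling, other filters, a block for library number, the compared groups alone, each library left out and, chosen after seeing the data, a signal-dependent scaling and leaving out libraries that stood apart or bore number 1.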

Additional observations from a re-analysis of the deposited data

Results flagged for a closer look

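Among 176 groups of 4 singing libraries at the named regions, the domain sum and the chromosome share, 7 held a library whose gap to its nearest neighbour exceeded the 95% critical value of Dixon's test, and chance gives about 8.8. RA singing library 4 stood at 39.1 CPM at chr3:2631826-2632982, where the other RA singing libraries had 14.8 to 17.5 CPM, and at 30.4 CPM at chr3:39461302-39462622, where they had 9.93 to 12.9 CPM. In RA singing library 4, 3 reads are 13.0 CPM, so both of its values rest on few reads. RA singing library 3 stood at 25.5 CPM at chr3:69587714-69588283, against 10.9 to 13.0 CPM. Area X singing library 1 stood at 13.3 CPM at chr3:32678254-32679791, against 5.95 to 6.26 CPM. Area X singing library 3 stood at 832 CPM at chr3:39453715-39460793 (570 to 592 CPM in the others), at 10.3 CPM at chr3:42031147-42031580 (8.36 to 8.68 CPM) and at 22.3 CPM at chr3:42616141-42618426 (9.25 to 10.3 CPM). Silent groups of 3 were not examined in this way.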

How the results depend on the processing

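Over both behaviours the counts toward Area X and RA kept within 1.5 times of 851 and 644 under all alternatives but 1. This limit does not cover the direction of the split. Total-count scaling kept within it but turned the split, to 568 toward Area X (20.8%, against 19.6% of all regions) and 871 toward RA (31.9%, against 34.2%). The exception, the restriction to regions at or above the median CPM, left 452 (30%, against 28.8% of all regions) and 340 (22.5%, against 26.1%), from fewer regions tested. Leaving out 1 library gave 606 (22.2%, against 20.8%) to 923 (33.8%, against 30.5%) toward Area X. Toward RA it gave 463 (17%, against 17.9%) to 688 (25.2%, against 27.3%). Within a behaviour they moved more. In silent birds, calls toward Area X (274) were 96 with DESeq2 size factors (3.52%, against 4.67% of all regions) and 146 with total-count scaling. They were 81 at or above the median CPM (5.37%, against 7.24%). Calls toward RA (261) were 401 in the DESeq2 test. A fit to the compared groups only gave 0 and 0 calls by edgeR in silent birds, where 1232 had an unadjusted p under 0.05 in the fit to all groups. Without RA silent library 2 and RA singing library 4 the counts were 724 and 486 in silent and 516 and 361 in singing birds. In singing birds total-count scaling gave 113 and 422, and the DESeq2 test 357 toward RA. Calls toward Area X (251) were 101 at or above the median CPM (6.69%, against 8.13% of all regions). They were 154 without the number 1 libraries (5.64%, against 5.34%) and 161 with signal-dependent scaling (5.9%, against 6.99%). Leaving out 1 library gave 0 to 729 toward Area X and 0 to 433 toward RA in silent birds, and 0 to 424 and 0 to 307 in singing birds. The cause of these moves was not tested.

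Singing against silent gave 0 calls on chromosome 3 in all 4 comparisons under each alternative run. With DESeq2, 78 regions in RA (2.86%, against 2.93% of all regions) and 51 in Area X (1.87%, against 1.68%) had an unadjusted p under 0.05. For both nuclei these were 104 (3.81%, against 3.94%) and for the difference 18 (0.659%, against 0.865%). Leaving out 1 library, the singing difference of the chromosome share ranged from -0.0734 to 0.153 points in RA and from -0.142 to 0.193 in Area X, and that of the domain sum from -58.2 to 698 CPM in RA and from -437 to 739 CPM in Area X.

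Whether the numbers pair the libraries was not settled. Deviations from the group means correlated between number 1 libraries at 0.52 to 0.73, in each pair of groups above the correlations with other numbers. Between number 2 libraries they went down to -0.32. With the number as a replicate block, edgeR called 757 (27.7%, against 24.4% of all regions) and 461 regions (16.9%, against 18%) in silent birds. Toward Area X in singing birds it called 556 (20.4%, against 18.9%), and still 0 for singing. The same block gave -0.0734 points for the RA share and -58.2 CPM for the RA domain sum. Their signs turned because library 4 has no partner and drops out.

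For the named regions, 110 fold changes were recomputed. The log2 fold change at chr3:58418648-58431711 turned to -0.21 with signal-dependent scaling. Of values that leave out 1 library, 182 lost their call, all in comparisons within a behaviour, and 1357 counted as unchanged. Under other settings these were 35 and 978. For regions named by the fold or p of the comparison, unchanged means the same call. For regions named otherwise, such as most of the domain, it means a log2 fold change that moved by less than the SD within groups. Lost calls were not counted there. Depth limits RA most, through RA singing library 4 with 0.203 M (1e6) reads in regions. Intervals cover neither scaling nor shared birds.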
